A study of Rattus norvegicus with 19 samples.

Results

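Neurones release transmitter and peptide when vesicles fuse with the plasma membrane. A vesicle is first tethered and readied by Rab3 proteins and priming factors, then SNARE proteins on the vesicle (the VAMPs) and on the target membrane (the syntaxins and the SNAP proteins) zip together, and synaptotagmins act as the calcium sensors that trigger the final step. In the magnocellular neurones of the hypothalamus the same kinds of protein serve the release of vasopressin and oxytocin from dense-core granules. The expression of 84 genes of this machinery was examined in the paraventricular nucleus (PVN) and supraoptic nucleus (SON) of spontaneously hypertensive rats (SHR) and normotensive Wistar Kyoto rats (WKY). The genes were chosen by symbol, as the synaptotagmins, syntaxins, syntaxin-binding proteins, VAMPs, numbered SNAPs, complexins, Sv2 proteins, synaptogyrins, Unc13 proteins, every symbol that begins with Rab3, and the named genes Syn1, Syn2, Syn3, Syp, Nsf, Rims1, Rims2, Cadps and Cadps2. They were read by 125 probe sets, out of 14217 genes with a single symbol and 31042 probe sets on the array. The rule also admits 11 Rab GTPases, Rab30 to Rab39, which share only the first letters of their names with the Rab3 family, and 73 genes remained without them.

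The data came from Affymetrix whole-genome rat arrays. There were 4 arrays of SHR SON, 5 of WKY SON, 5 of SHR PVN and 5 of WKY PVN, from untreated male rats labelled as 12 weeks old. SHR is an inbred strain that develops high blood pressure, WKY is its usual normotensive control strain, and no transgene or drug was involved. The fifth SHR SON array was not analysed here. The study describes its groups as made up of pooled nuclei, so p-values speak of pools of tissue rather than of single animals. Both nuclei were dissected from the same brain sections, so SON and PVN pools may share rats. The labels do not say so, and the tests treated the arrays as independent. With 4 or 5 arrays in a group their precision is limited. All values below are log2 signals after each array had been scaled to a common median, with a floor at 1.91, and a difference of 1 on this scale is a 2-fold difference. Errors are SD for group means and standard errors (SE) for differences, and adjusted p-values are from limma with Benjamini-Hochberg adjustment over all tested probe sets, called at under 0.05. A probe set was tested where the mean of at least 1 group reached a log2 signal of 5.32. Where several probe sets read a gene, the one with the highest mean over all arrays was taken, and further ones are given where they differ.

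The 2 nuclei could be told apart by their hormones. Avp and Oxt, the vasopressin and oxytocin genes of magnocellular neurones, had group means between 11.91 and 12.38 in both nuclei. Crh, Trh and Sst, peptides of the parvocellular PVN, together averaged 5.43 to 5.70 on SHR SON arrays and 5.96 to 6.60 on WKY SON arrays, against 9.86 to 10.06 on SHR PVN arrays and 10.10 to 10.51 on WKY PVN arrays. The dissections also differed in other cells. All 11 of 11 meningeal markers were higher in the SON than in the PVN in both strains, and all 6 of 6 ependymal markers measured were lower, although only 4 of the 11 reached the filter in a PVN group and only 2 of the 6 in a SON group. Arrays correlated with the others of their group at 0.929 (WKY SON array 3) to 0.968 on average, and the medians before scaling ranged from 35.9 to 46.5.

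Of the 84 genes, 61 passed the filter in at least 1 comparison. The other 23 were too dim to be tested, and 14 of these had an array at the floor. They include well-known components, namely the priming factor Unc13a, the active zone protein Rims1, the complexin Cplx2, the vesicle glycoprotein Sv2c and the synaptogyrin Syngr1. No statement is made about them, since a dim probe set does not show a low RNA level. Within the 13 role groups the array held 16 synaptotagmins (9 tested), 12 syntaxins (10 tested), 8 members of the Rab3 family and its regulators (7 tested), 8 priming proteins (4 tested), 7 VAMPs (7 tested), 7 vesicle membrane proteins (5 tested), 4 syntaxin-binding proteins (4 tested), 3 SNAPs (3 tested), 3 synapsins (2 tested) and 3 complexins (1 tested), besides Nsf and Snap91, both tested. The median of the 61 tested members on single arrays ranged from 7.46 to 7.61 in SHR SON, from 7.35 to 7.76 in WKY SON, from 7.18 to 7.78 in SHR PVN and from 7.38 to 7.59 in WKY PVN. These ranges overlap in every pair of groups.

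The promoters of 4 members that the results turn on are shown first. Syn1 and Syn2 are the synapsins whose signals differed between nuclei in opposite directions in WKY, and Vamp5 and Vamp8 rose together in the SON. The sequences are from RefSeq (GRCr8), cover 250 bases before to 50 bases after the annotated start, and are given 5′ to 3′ for the strand named. Capitals mark matches on either strand to the cAMP response element (CRE, TGACGTCA) or the GC box (GGGCGG), whose reverse complement is CCGCCC.
Syn1 promoter, chrX:3725495-3725794, plus strand: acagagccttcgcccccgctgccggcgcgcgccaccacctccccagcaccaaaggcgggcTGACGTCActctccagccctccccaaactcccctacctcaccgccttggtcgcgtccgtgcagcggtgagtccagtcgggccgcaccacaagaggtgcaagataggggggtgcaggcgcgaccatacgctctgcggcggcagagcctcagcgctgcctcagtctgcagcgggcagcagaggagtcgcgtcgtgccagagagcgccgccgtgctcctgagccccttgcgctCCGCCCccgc
Syn2 promoter, chr4:149858669-149858968, plus strand: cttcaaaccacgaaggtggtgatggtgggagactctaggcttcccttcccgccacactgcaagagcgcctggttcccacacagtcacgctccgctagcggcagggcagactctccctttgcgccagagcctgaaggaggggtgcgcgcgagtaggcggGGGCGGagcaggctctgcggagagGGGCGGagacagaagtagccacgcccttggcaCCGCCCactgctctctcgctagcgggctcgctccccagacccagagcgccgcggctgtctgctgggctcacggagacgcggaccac
Vamp5 promoter, chr4:105993198-105993497, minus strand: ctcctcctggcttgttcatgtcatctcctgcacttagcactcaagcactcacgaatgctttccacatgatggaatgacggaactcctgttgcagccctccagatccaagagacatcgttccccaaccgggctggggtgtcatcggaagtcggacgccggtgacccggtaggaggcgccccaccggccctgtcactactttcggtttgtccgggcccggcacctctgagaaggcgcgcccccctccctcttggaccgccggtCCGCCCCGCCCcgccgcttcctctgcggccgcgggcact
Vamp8 promoter, chr4:106005593-106005892, minus strand: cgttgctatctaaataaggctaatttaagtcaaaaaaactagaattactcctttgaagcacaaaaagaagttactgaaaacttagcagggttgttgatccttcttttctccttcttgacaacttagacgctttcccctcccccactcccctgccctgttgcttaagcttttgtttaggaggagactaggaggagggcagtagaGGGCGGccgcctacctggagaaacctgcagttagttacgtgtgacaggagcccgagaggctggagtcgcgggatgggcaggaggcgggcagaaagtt
Of these promoters, Syn1 alone held a CRE, and the GC box occurred once in Syn1, 3 times in Syn2, 2 times in Vamp5 (overlapping by a base) and once in Vamp8. GC content was 71.0% in Syn1, 67.7% in Syn2, 64.7% in Vamp5 and 49.0% in Vamp8. Promoters were matched for 66 of the 84 members. The CRE was present in 2 of 66 (3.03%, Syn1 and Vamp1), against 1.83% of all 33469 promoters. The GC box was present in 46 of 66 (69.7%), against 33.1% of all promoters, and the median GC content was 64.2% for members and 51.7% for all. A TATA box (TATAAA) was found in 1 of 66 (1.52%, Stxbp3), against 14.2% of all promoters. Vamp5 and Vamp8 are neighbours on rat chromosome 4, with 0 annotated genes starting between them. All promoters were counted whatever the kind of gene, and no set of genes like the members in kind was compared. The shares are thus not shown to be particular to the members. A match of letters is a description and not a site of binding.

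The first comparison asked whether the machinery differed between the hypertensive and the normotensive strain in the SON. Syn2 and Syt17 were lower in SHR SON than in WKY SON, and 56 of the 58 tested members did not pass the test. The members called were 2 of 58 (3.45%), both lower, against a background of 3.63% of all probe sets tested, of which 1.29% were called higher and 2.33% lower. The share of members called is thus near that of the whole array. Of all calls 35.7% were higher, but 52.7% with the values as deposited and 45.5% after quantile normalisation. Without WKY SON array 3, 6 members were called, beside 4.45% of all probe sets, and without SHR SON array 2, 1 was, beside 2.14%. The median difference of the tested members was -0.03, beside -0.04 for all probe sets (0.04 and 0.02 with the values as deposited), and 21 of 58 differences were above 0, beside 41.3% of all probe sets.

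Syn2 encodes synapsin II, a phosphoprotein on the surface of synaptic vesicles that tethers them in the reserve pool. Its log2 signal was 8.80, 8.55, 8.97 and 8.89 on the SHR SON arrays, against 9.41, 9.48, 9.27, 9.39 and 9.55 on the WKY SON arrays. Every SHR array lay below every WKY array. The difference was -0.62 (SE 0.11, adjusted p = 0.00864 from limma), with a 95% interval of -0.86 to -0.38, or 1.54-fold lower in SHR. Both further probe sets of Syn2 were lower as well. One of them had 6.47, 6.44, 6.75 and 6.47 on SHR SON arrays, against 7.0, 7.13, 7.30, 6.98 and 6.82 on WKY SON arrays, and the other had 5.89, 5.93, 6.27 and 5.71, against 6.53, 6.43, 6.60, 6.47 and 6.53. Neither set of arrays overlapped between strains, and the differences were -0.52 (adjusted p = 0.0337 from limma) and -0.56 (adjusted p = 0.0197). In the PVN the same 3 probe sets differed by -0.07, -0.17 and -0.16, and none was called.

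Syt17, a member of the synaptotagmin family that lacks a transmembrane segment, had 7.19, 7.05, 7.27 and 7.26 on SHR SON arrays, against 7.84, 7.89, 7.44, 7.80 and 7.89 on WKY SON arrays. The groups did not overlap, although WKY SON array 3 stood well below the other WKY arrays. The difference was -0.58 (SE 0.12, adjusted p = 0.0168 from limma), and the probe set carries a suffix that marks possible binding to related transcripts. The other Syt17 probe set differed by -0.23 (adjusted p = 0.517) and was not called. The Syt17 call was lost without SHR SON array 2 (-0.53, adjusted p = 0.0607) and when no filter on dim probe sets was applied. The calls of Syn2 and Syt17 were both lost with the methods' t-test.

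**Figure D1:**
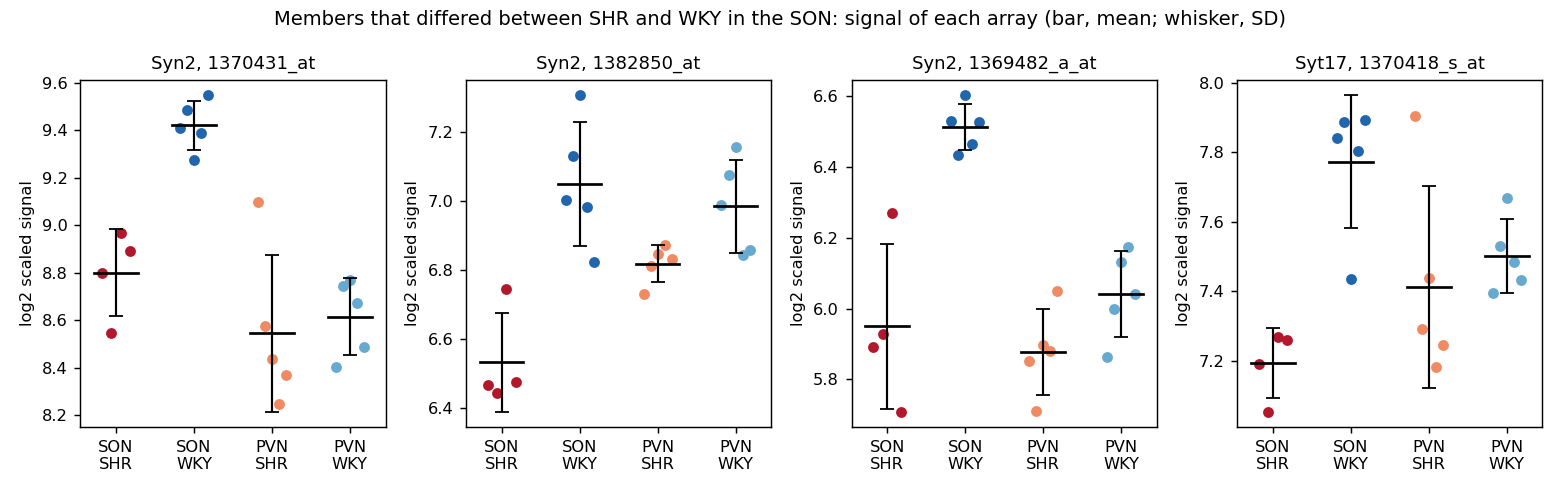
The log2 scaled signal (vertical axes, which do not start at 0) of each array is shown for the 3 Syn2 probe sets and the Syt17 probe set in SHR SON, WKY SON, SHR PVN and WKY PVN, with the group mean as a bar and the SD as a whisker. In each panel all 4 SHR SON points lie below all 5 WKY SON points, whereas the PVN points of the strains overlap, with SHR PVN array 1 the highest point of its group for the leftmost Syn2 probe set and for Syt17.

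With no adjustment, 18 of 58 members had p under 0.05 from limma, 15 lower and 3 higher in SHR. Over the whole array 3124 of 16164 tested probe sets did (19.3%). Of these 3124, 2078 were lower in SHR, which is 12.9% of all tested. The 15 lower ones include Vamp2, the principal vesicle SNARE of neurones, the granule synaptotagmin Syt4, the vesicle membrane proteins Syp (synaptophysin), Sv2a and Syngr3, the small GTPase Rab3a, and Nsf, the ATPase that takes spent SNARE complexes apart. Vamp2 had 7.58, 7.61, 7.43 and 7.45 on SHR SON arrays, against 7.88, 7.77, 8.02, 7.81 and 8.04 on WKY SON arrays, a difference of -0.39 (SE 0.10, adjusted p = 0.0525 from limma). Syp had 9.17, 8.96, 9.08 and 9.29, against 9.51, 9.53, 9.34, 9.63 and 9.47, a difference of -0.37 (SE 0.10, adjusted p = 0.0692). For both genes the strains did not overlap, yet neither passed the adjusted threshold. Without WKY SON array 3, Syp and Nsf passed it (adjusted p = 0.0457 and 0.0358). The differences of Syngr3, Nsf, Rab3a, Sv2a and Syt4 were -0.42, -0.38, -0.34, -0.29 and -0.33, with adjusted p from limma between 0.0553 and 0.113.

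Stx8, an endosomal syntaxin, had the smallest adjusted p among the members with higher values in SHR SON. It had 7.67, 7.66, 7.58 and 7.62 on SHR SON arrays, against 7.32, 7.25, 7.42, 7.13 and 7.21 on WKY SON arrays. The strains did not overlap, and the difference was 0.37 (SE 0.09, adjusted p = 0.0517 from limma). Rab32, which works on the biogenesis of lysosome-related organelles, differed by 0.49 and the ubiquitous synaptogyrin Syngr2 also by 0.49, with adjusted p of 0.146 and 0.141, and for both the strains overlapped. Stx8 passed the test with the values as deposited and with quantile normalisation, as did Syn2 and Syt17. It also passed with log2(value + 16), a stricter filter, all 19 arrays in 1 fit, eBayes with trend and robust, and array weights. With no filter or with the methods' t-test Stx8 was not called.

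Several other core members were not called in the SON. Snap25, the neuronal SNAP on the plasma membrane, had 11.11, 11.14, 11.03 and 11.22 on SHR SON arrays, against 11.26, 11.29, 11.14, 11.44 and 11.44 on WKY SON arrays, which overlap, and the difference was -0.19 (adjusted p = 0.321 from limma). Stx1a, its partner syntaxin, differed by 0.05 (adjusted p = 0.91), Vamp1 by -0.00 (adjusted p = 0.999), Sv2b by -0.13 (adjusted p = 0.654), Syn1 by -0.17 (adjusted p = 0.398), the complexin Cplx1 by -0.25 (adjusted p = 0.438) and Cadps, a priming factor of dense-core granules, by -0.25 (adjusted p = 0.143). Cadps2, a priming factor of the same granules, differed by -0.30 (adjusted p = 0.127 from limma), and its SON arrays, given below, did not overlap between strains. These values do not show that the strains were alike, since an interval such as that of Cadps, -0.44 to -0.06, leaves out 0 before adjustment.

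Markers of cell types moved with strain in the SON. The mean of 20 neuronal markers was 9.21 to 9.35 on SHR SON arrays, against 9.45 to 9.66 on WKY SON arrays, with no overlap, and 2 of the 20 (Ina and Thy1) were called lower. Thy1, a surface glycoprotein of neurones, differed by -1.61 (adjusted p = 9.55e-05 from limma) in the SON and by -1.33 (adjusted p = 3.52e-06) in the PVN, where it was the 1 of 20 called. Sim1, a transcription factor of the neurosecretory lineage, was lower in SHR in both nuclei, by differences of -0.97 (adjusted p = 0.00964) in the SON and -0.94 (adjusted p = 2.82e-05) in the PVN. Avp and Oxt, the magnocellular markers, were not called in the SON, at -0.12 (adjusted p = 0.771 from limma) and -0.03 (adjusted p = 0.948). Nor were any of 9 astrocyte, 10 oligodendrocyte, 8 microglial and 8 endothelial markers there. The mean of 11 meningeal markers was 7.96 to 9.34 on SHR SON arrays, against 7.60 to 8.23 on WKY SON arrays, and 3 of the 11 (Crabp2, Dcn and Lum) were called higher. In the PVN, 2 of 6 ependymal markers were called higher in SHR, Tekt1 by 0.47 (adjusted p = 0.0444 from limma) and Ak7 by 0.48 (adjusted p = 0.046). The mean of the 6 was 8.12 to 8.51 on SHR PVN arrays, against 7.79 to 8.17 on WKY PVN arrays. In tissue that holds many cell types, fewer cells of a type and less RNA per cell cannot be told apart, and the part of these markers in the Syn2 and Syt17 differences was not tested.

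In the PVN, 0 of 59 tested members were called between SHR and WKY by limma, against a background of 2.34% of all probe sets, 1.13% higher and 1.21% lower. The median difference was -0.06, beside -0.04 for all probe sets, and differences ranged from -0.59 to 0.36. With no adjustment 6 members had p under 0.05, beside 13.5% of all probe sets. Of these, Stx8 and Vamp3 had higher values in SHR, and Syn1, Syt4, Stxbp2 and Vamp2 had lower ones. The methods' t-test with adjustment also called 0.

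Stxbp2, which binds syntaxins outside neuronal synapses, had the smallest adjusted p of the members in the PVN. It had 4.63, 5.36, 5.62, 5.70 and 5.69 on SHR PVN arrays, against 5.93, 5.73, 5.85, 6.18 and 6.27 on WKY PVN arrays, so that the strains did not overlap, and SHR PVN array 1 was the lowest. The difference was -0.59 (SE 0.18, adjusted p = 0.133 from limma). Vamp3, a ubiquitous vesicle SNARE of endosomes, had 9.11, 8.81, 8.63, 8.66 and 8.72 on SHR PVN arrays, against 8.39, 8.32, 8.67, 8.35 and 8.42 on WKY PVN arrays, a difference of 0.36 (SE 0.12, adjusted p = 0.159). Here the highest WKY array lay within the SHR range.

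Vamp2 had 8.26, 7.62, 8.03, 7.67 and 7.66 on SHR PVN arrays, against 8.29, 7.99, 8.71, 8.31 and 8.08 on WKY PVN arrays, a difference of -0.43 (adjusted p = 0.218 from limma), and the strains overlapped. Nsf had 10.47, 10.01, 9.89, 9.50 and 9.58 on SHR PVN arrays, against 10.12, 10.18, 10.12, 10.01 and 9.92 on WKY PVN arrays. The SHR arrays of Nsf spread more widely than the WKY arrays and enclosed them. SHR PVN array 1 was the highest of its group for Nsf, Syp, Rab3a, Sv2a, Syngr3 and Cplx1, and array 4 or 5 was the lowest. Before scaling, SHR PVN array 1 had the lowest median of all arrays (35.94), and arrays 4 and 5 had 46.52 and 44.51. Whether the scaling set this order was not tested. Without SHR PVN array 1, 0 members were called between strains, beside 4.5% of all probe sets. The mean of the neuronal markers ranged from 9.16 to 9.57 on SHR PVN arrays and from 9.46 to 9.61 on WKY PVN arrays. The differences of Snap25, Stx1a, Vamp1, Nsf, Syn1, Syt4, Rab3a, Cplx1, Cadps, Cadps2, Syp, Syt1, Sv2a and Sv2b in the PVN lay between -0.32 and 0.13, with adjusted p of 0.276 or more.

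**Figure D2:**
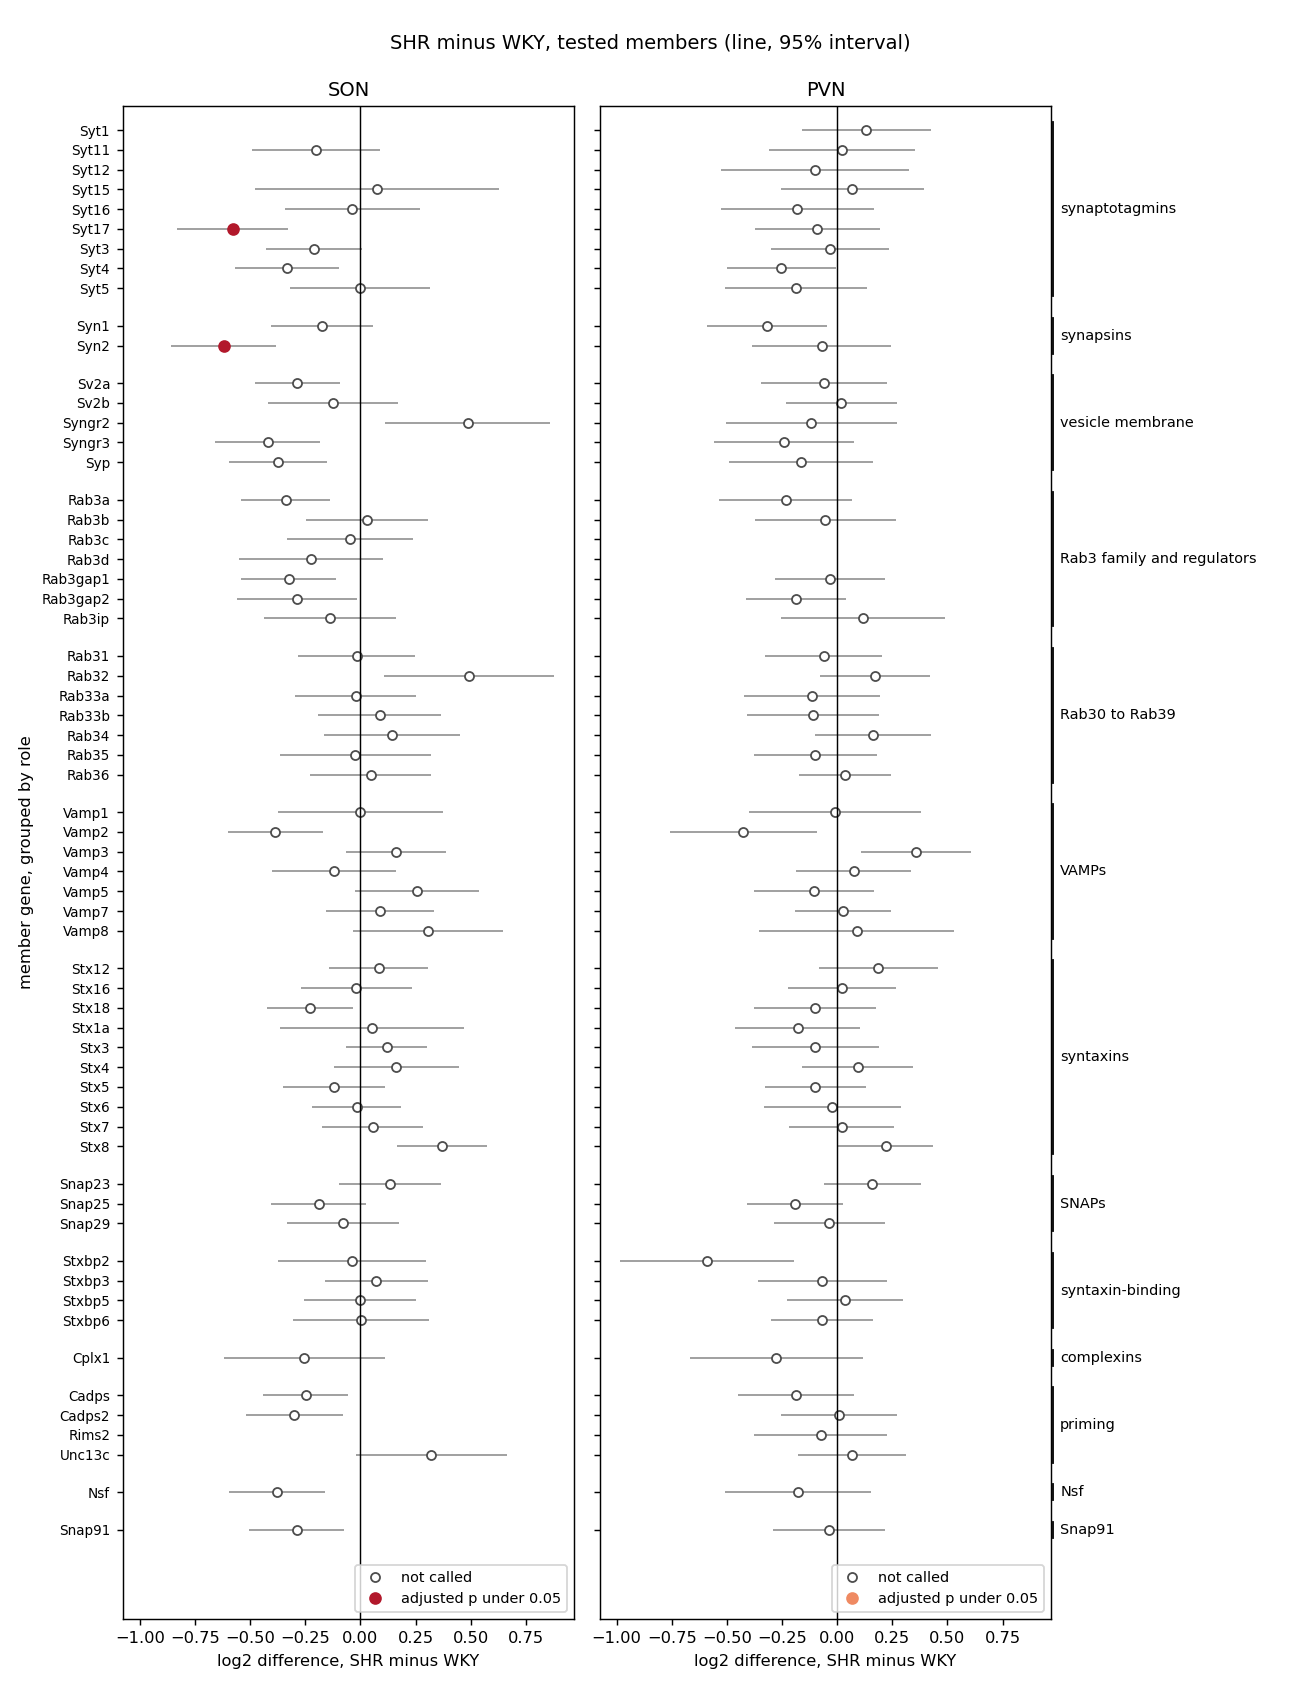
The log2 difference SHR minus WKY (horizontal axis) is shown for each tested member in the SON and in the PVN, grouped by role, with 95% intervals as lines and called members as filled points. In the SON panel only Syn2 and Syt17 are filled, both below 0, and in the PVN panel no point is filled.

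Whether the strain difference itself changed with nucleus was tested as the interaction, in which the SHR minus WKY difference of the PVN is subtracted from that of the SON. It was called for 0 of 61 members, against a background of 0.0819% of all probe sets. With no adjustment 3 members had p under 0.05, namely Syn2 (-0.55, adjusted p = 0.563 from limma), Syt17 (-0.49, adjusted p = 0.563) and Syngr2 (0.60, adjusted p = 0.72), beside 6.85% of all probe sets. The lower values of Syn2 and Syt17 in SHR were thus not shown to be particular to the SON.

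The comparison of nuclei gave more calls. In SHR, 21 of 61 members (34.4%) differed between SON and PVN, 12 higher and 9 lower in the SON, against a background of 29.4% of all probe sets, 13.7% higher and 15.7% lower. In WKY, 20 of 61 (32.8%) differed, 12 higher and 8 lower in the SON, against 26.9% of all, 13.2% higher and 13.7% lower. The median difference was -0.08 in SHR and -0.04 in WKY, beside -0.02 and -0.01 for all probe sets. With the values as deposited the calls were 14 higher and 11 lower in SHR (35.5% of all probe sets were called) and 14 higher and 12 lower in WKY (33.5%), and after quantile normalisation 16 and 11 in SHR (36.1%) and 15 and 14 in WKY (33.6%). Past a 2-fold limit as well were 4 members in SHR (6.56%, beside 5.65% of all probe sets) and 4 in WKY (6.56%, beside 4.91%). Among these, Rab3d in both strains and Syt12 in WKY passed the filter in 1 nucleus only. The direction of their calls was thus largely fixed by the filter. Calls made in both strains numbered 13, which is 61.9% of the SHR calls and 65.0% of the WKY calls, and all 13 had the same direction. Over all probe sets 3224 were called in both, 64.1% of the SHR calls and 70.1% of the WKY calls, and 99.8% of these had the same direction. The arrays of the strains are different, but both comparisons used 1 estimate of the spread from all 19 arrays.

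Higher in the SON in both strains were Vamp5, Vamp8, Rab3c, Rab3d, Cadps2, Snap23, Snap29, Stx4 and Stx5. Lower in both were Syn1, Syt16, Unc13c and Rab36. Rab3c and Rab3d are included in all these counts, although they passed the filter through the SON only and so could hardly be called lower there. As background, Vamp5 and Vamp8 are vesicle SNAREs of muscle, endosomes and secretory cells, Snap23 and Stx4 are the plasma membrane SNAREs of many non-neuronal cells, Snap29 and Stx5 work on autophagosomes, endosomes and the Golgi apparatus, and Rab3d is the Rab3 protein of exocrine and endocrine granules. Cadps2 primes dense-core granules, and Rab3c is a neuronal Rab3. The 4 lower genes are the synapsin Syn1, the presynaptic priming factor Unc13c, the synaptotagmin-like protein Syt16 and Rab36. Rab36 is a GTPase of late endosomes and the Golgi apparatus.

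Among the VAMPs, 3 of 7 were higher in the SON in SHR, none of the 7 was lower, and 3 of 7 were higher and 1 lower in WKY. Beside this, 13.7% of all probe sets were higher and 15.7% lower in SHR, and 13.2% and 13.7% in WKY. Vamp5 had 7.82, 7.72, 7.49 and 7.32 on SHR SON arrays, against 6.17, 5.87, 6.03, 5.76 and 6.0 on SHR PVN arrays. In WKY it had 7.34, 7.25, 7.09, 7.53 and 7.45 on SON arrays, against 5.86, 5.84, 6.23, 6.03 and 6.40 on PVN arrays. All 9 SON arrays lay above all 10 PVN arrays. The difference was 1.63 (SE 0.13, adjusted p = 1.13e-08 from limma, 3.09-fold) in SHR and 1.26 (SE 0.13, adjusted p = 2.29e-07, 2.40-fold) in WKY. Its other probe sets lay at or near the floor and were not tested.

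Vamp8, the neighbour of Vamp5 whose promoter is given above, had 7.60, 7.34, 7.25 and 7.06 on SHR SON arrays, against 6.91, 6.35, 6.38, 5.75 and 6.03 on SHR PVN arrays. In WKY it had 7.31, 6.95, 7.21, 7.0 and 6.57 on SON arrays, against 6.38, 6.32, 6.64, 5.60 and 6.04 on PVN arrays. The nuclei did not overlap in SHR, and in WKY SON array 5 fell below the highest PVN array. The differences were 1.03 (SE 0.21, adjusted p = 0.0011 from limma) in SHR and 0.81 (SE 0.20, adjusted p = 0.00512) in WKY. Vamp3 was higher in the SON of WKY by 0.46 (adjusted p = 0.00251) and differed by 0.26 in SHR (adjusted p = 0.0809), while Vamp7, a SNARE of late endosomes and lysosomes, was higher in SHR by 0.29 (adjusted p = 0.0366) and differed by 0.23 in WKY (adjusted p = 0.0872). Vamp2, the neuronal form, was lower in WKY SON by a difference of -0.37 (adjusted p = 0.049) and differed by -0.33 in SHR (adjusted p = 0.0911), and Vamp1, the other neuronal form, differed by -0.44 in SHR and -0.45 in WKY and was not called, although a second Vamp1 probe set was called in SHR (-0.48, adjusted p = 0.0484).

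The Rab3 proteins sit on vesicles and granules and recruit the docking machinery. Rab3d had 6.19, 5.86, 6.02 and 6.44 on SHR SON arrays, against 4.71, 5.44, 3.26, 5.30 and 5.12 on SHR PVN arrays, and 6.12, 6.31, 6.12, 6.53 and 6.67 on WKY SON arrays, against 3.75, 4.45, 5.56, 4.65 and 4.63 on WKY PVN arrays. The nuclei did not overlap in either strain. The difference was 1.36 (SE 0.35, adjusted p = 0.00569 from limma) in SHR and 1.74 (SE 0.33, adjusted p = 4.80e-04) in WKY. Rab3c, a neuronal Rab3, had 5.57, 6.03, 5.89 and 6.06 on SHR SON arrays, against 5.11, 5.04, 5.11, 4.97 and 5.60 on SHR PVN arrays, a difference of 0.72 (adjusted p = 3.98e-04), and its difference in WKY was 0.64 (adjusted p = 8.28e-04). SHR PVN array 5 reached into the SON range for Rab3c. The Rab3d call in SHR was lost with the methods' t-test (adjusted p = 0.0943). Rab3a, the chief synaptic form, differed by -0.16 in SHR and -0.06 in WKY and was not called, and Rab3b was lower in WKY SON by a difference of -0.43 (adjusted p = 0.031) and differed by -0.34 in SHR (adjusted p = 0.0955).

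Priming proteins moved in both directions. Cadps2, which primes dense-core granules for release, had 9.16, 9.01, 9.23 and 9.17 on SHR SON arrays, against 8.70, 8.70, 8.52, 8.27 and 8.11 on SHR PVN arrays. In WKY it had 9.37, 9.47, 9.26, 9.62 and 9.48 on SON arrays, against 8.47, 8.41, 8.53, 8.42 and 8.42 on PVN arrays. The nuclei did not overlap in either strain, and the differences were 0.68 (SE 0.12, adjusted p = 1.43e-04 from limma) in SHR and 0.99 (SE 0.11, adjusted p = 8.46e-07) in WKY. Its close relative Cadps differed by -0.02 in SHR and 0.04 in WKY and was not called. Unc13c, a Munc13 priming factor of synapses, had 5.46, 6.02, 5.72 and 5.95 on SHR SON arrays, against 6.41, 6.05, 6.48, 6.02 and 6.12 on SHR PVN arrays, and 5.71, 5.62, 5.05, 5.37 and 5.58 on WKY SON arrays, against 6.05, 6.12, 6.13, 6.26 and 6.18 on WKY PVN arrays. Its difference was -0.43 (adjusted p = 0.0274) in SHR and -0.68 (adjusted p = 6.64e-04) in WKY. Rims2, a scaffold of the active zone, was lower in SHR SON by a difference of -0.43 (adjusted p = 0.0398) and differed by -0.24 in WKY (adjusted p = 0.231).

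The synapsins went in different directions. Syn1, synapsin I, had 7.05, 7.01, 6.90 and 6.66 on SHR SON arrays, against 7.60, 7.22, 7.49, 7.36 and 7.16 on SHR PVN arrays, and 7.09, 6.96, 7.07, 7.21 and 7.06 on WKY SON arrays, against 7.52, 7.56, 8.06, 7.71 and 7.57 on WKY PVN arrays. The nuclei did not overlap in either strain, and the differences were -0.46 (SE 0.12, adjusted p = 0.0071 from limma) in SHR and -0.60 (SE 0.11, adjusted p = 5.00e-04) in WKY. A second Syn1 probe set gave -0.43 (adjusted p = 0.075) in SHR and -0.26 (adjusted p = 0.268) in WKY. Syn2 had 8.80, 8.55, 8.97 and 8.89 on SHR SON arrays, against 9.10, 8.58, 8.44, 8.25 and 8.37 on SHR PVN arrays, which overlap. In WKY the SON arrays given above lay at 9.27 or more, against 8.40, 8.75, 8.77, 8.67 and 8.49 on PVN arrays. Syn2 was thus higher in the SON in WKY, by 0.81 (SE 0.13, adjusted p = 1.22e-04), and differed by 0.26 (adjusted p = 0.185) in SHR, where it was called without PVN array 1 (0.39, adjusted p = 0.012), while the test of the difference between strains is the interaction given above. The WKY SON arrays also enter the strain comparison, so the results are not independent. The further Syn2 probe sets disagreed in the nucleus comparison, at -0.29 (adjusted p = 0.0447) and 0.07 (adjusted p = 0.653) in SHR and at 0.06 (adjusted p = 0.665) and 0.47 (adjusted p = 0.00148) in WKY.

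Of 9 tested synaptotagmins, 1 was lower in the SON in SHR and 2 were lower in WKY, and 0 were higher by limma. Beside this, 15.7% of all probe sets were lower and 13.7% higher in SHR, and 13.7% and 13.2% in WKY. Syt16, a synaptotagmin-like protein without known calcium binding, had 6.23, 6.36, 6.55 and 6.62 on SHR SON arrays, against 7.78, 7.38, 7.77, 7.01 and 7.34 on SHR PVN arrays, and 6.51, 6.86, 6.52, 6.22 and 6.27 on WKY SON arrays, against 7.74, 7.74, 7.96, 7.48 and 7.26 on WKY PVN arrays. The nuclei did not overlap. The differences were -1.01 (SE 0.17, adjusted p = 1.23e-04 from limma) in SHR and -1.16 (SE 0.16, adjusted p = 1.48e-05) in WKY. Syt12 had 5.13, 4.15, 2.23, 4.67 and 1.96 on WKY SON arrays, against 5.19, 5.66, 5.33, 5.09 and 5.47 on WKY PVN arrays, a difference of -1.72 (SE 0.45, adjusted p = 0.00678). It passed the filter through the PVN only and so could hardly be called higher in the SON, its SON values were widely spread, the call was lost with the methods' t-test (adjusted p = 0.144), and in SHR it differed by -0.84 (adjusted p = 0.191). Syt1, the main calcium sensor of fast release, differed by -0.26 in SHR and -0.25 in WKY on a probe set near the filter, and Syt4, a synaptotagmin of neuropeptide granules, by 0.14 and 0.22, with no call.

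Of 10 tested syntaxins, 3 were higher in the SON and 0 lower in SHR by limma, and 3 were higher and 1 lower in WKY, and of the 3 SNAPs 2 were higher in each strain. The shares called over all probe sets were 29.4% in SHR (13.7% higher, 15.7% lower) and 26.9% in WKY (13.2% higher, 13.7% lower). Stx4 had 8.0, 7.85, 7.82 and 7.57 on SHR SON arrays, against 7.55, 7.51, 7.24, 7.07 and 7.15 on SHR PVN arrays, a difference of 0.51 (SE 0.13, adjusted p = 0.00462 from limma), and it differed by 0.44 in WKY (adjusted p = 0.00963). Snap23 had 6.69, 6.66, 6.62 and 6.71 on SHR SON arrays, against 6.33, 6.03, 6.26, 6.18 and 6.37 on SHR PVN arrays, a difference of 0.44 (adjusted p = 0.00227), and it differed by 0.46 in WKY (adjusted p = 9.40e-04). For both genes the nuclei did not overlap in SHR. A second Snap23 probe set differed by 0.35 in SHR and 0.03 in WKY and was not called. The neuronal counterparts were not called higher. Snap25 differed by -0.08 in SHR and -0.08 in WKY (adjusted p = 0.566 and 0.524), but after quantile normalisation it was called lower in the SON in SHR (-0.37, adjusted p = 1.82e-04) and in WKY (-0.22, adjusted p = 0.00793). Stx1a was lower in WKY SON by a difference of -0.69 (SE 0.17, adjusted p = 0.00436, but 0.0643 with the methods' t-test) and differed by -0.45 in SHR (adjusted p = 0.0601). Snap29 was higher by 0.36 in SHR and 0.40 in WKY, Stx5 by 0.31 and 0.33, Stx18, a SNARE of the endoplasmic reticulum, by 0.34 in WKY, and Stx3, a SNARE of the apical membrane of epithelia, by 0.46 in SHR.

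Among the syntaxin-binding proteins, Stxbp2 had 6.61, 5.98, 6.07 and 6.28 on SHR SON arrays, against the PVN values of 4.63 to 5.70 given above. It was higher in SHR SON by 0.84 (SE 0.19, adjusted p = 0.00272 from limma, but 0.0648 with the methods' t-test) and differed by 0.28 in WKY. The probe sets that stand for Stxbp5 (tomosyn, which inhibits SNARE assembly) and Stxbp6 were not called, but lower-signal probe sets of both were. That of Stxbp6 was higher in the SON by 0.66 (adjusted p = 4.13e-04) in SHR and 0.59 (adjusted p = 7.76e-04) in WKY, and of 2 further Stxbp5 probe sets 1 was called in SHR (0.47) and both in WKY (0.47 and 0.52). Nsf was lower in SHR SON by a difference of -0.49 (adjusted p = 0.0145), and its further probe sets by -0.51 (adjusted p = 0.00607) and -0.41 (adjusted p = 0.0331). In WKY the same 3 probe sets differed by -0.29, -0.13 and -0.32, with no call.

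The vesicle membrane proteins Sv2a and Sv2b, which botulinum toxin A uses as receptors, were lower in SHR SON by differences of -0.34 (adjusted p = 0.0351 from limma) and -0.40 (adjusted p = 0.0261), and in WKY they differed by -0.12 and -0.25 with no call. Snap91 (AP180), an adaptor of clathrin that retrieves vesicle membrane, was lower in SHR SON by a difference of -0.36 (adjusted p = 0.0168). Syp differed by -0.08 in SHR and 0.13 in WKY, and Cplx1 by -0.06 and -0.08, with no call. Among Rab30 to Rab39, Rab36, a GTPase of late endosomes and the Golgi apparatus, was lower in the SON by differences of -0.56 in SHR (adjusted p = 5.63e-04) and -0.57 in WKY (adjusted p = 2.66e-04), and the other 6 tested were not called. The difference between strains was not called for any of these genes, so a call in 1 strain alone does not show that the nuclei differed more in that strain.

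Some of these calls were lost when 1 array was left out, and many of those were lost with any of several arrays. Over all probe sets, the share called with 1 array left out was 24.2% to 30.7% in SHR and 23.1% to 30.7% in WKY. With all arrays it was 29.4% and 26.9%. In SHR, leaving out 1 array ended 8 of 21 calls. Nsf lost its call without SON array 3 (adjusted p = 0.0512), and Snap29 without PVN array 4 or SON array 2 (0.0706 to 0.0963). Unc13c lost it without PVN arrays 1 or 3 or SON arrays 1 or 3 (0.0586 to 0.116), and Sv2b without PVN arrays 2 or 4 or SON arrays 1 or 4 (0.0503 to 0.0973). Stx5, Sv2a, Rims2 and Vamp7 lost it without any of 5, 5, 6 and 6 of the 9 SHR arrays, with adjusted p up to 0.137. In WKY, 4 of 20 calls ended, namely Stx5 (without PVN array 2 or SON array 4, 0.0513 to 0.056), Stx18 (without PVN arrays 1 or 3 or SON array 4, 0.0551 to 0.0622), Rab3b (6 arrays, 0.0502 to 0.0894) and Vamp2 (14 of 19 arrays, 0.05 to 0.15). Stx1a was called in SHR without any of 4 arrays (SHR PVN 4 or 5, WKY SON 2 or 3), with adjusted p from 0.038 to 0.0486. Vamp1 was called lower in SHR SON without SHR PVN array 4 (0.045). In WKY SON it was called lower without SHR PVN array 1 or WKY SON array 2 (0.0364 to 0.0372). Nsf was called lower in WKY SON without SHR PVN array 1 (0.0351). Whichever array was left out, Vamp5, Vamp8, Cadps2, Snap23, Stx4, Syn1, Syt16, Rab36 and Rab3c (tested through the SON only) kept their calls in both strains. They also kept them with the methods' t-test. That test ended 10 of 21 calls in SHR, namely those of Rab3d, Stxbp2, Snap29, Vamp7, Nsf, Rims2, Unc13c, Sv2a, Sv2b and Snap91, and 5 of 20 in WKY, namely those of Stx5, Syt12, Stx1a, Rab3b and Vamp2, while Nsf was called lower in WKY SON (adjusted p = 0.0202). It called 16% of all probe sets in SHR and 22.5% in WKY.

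**Figure D3:**
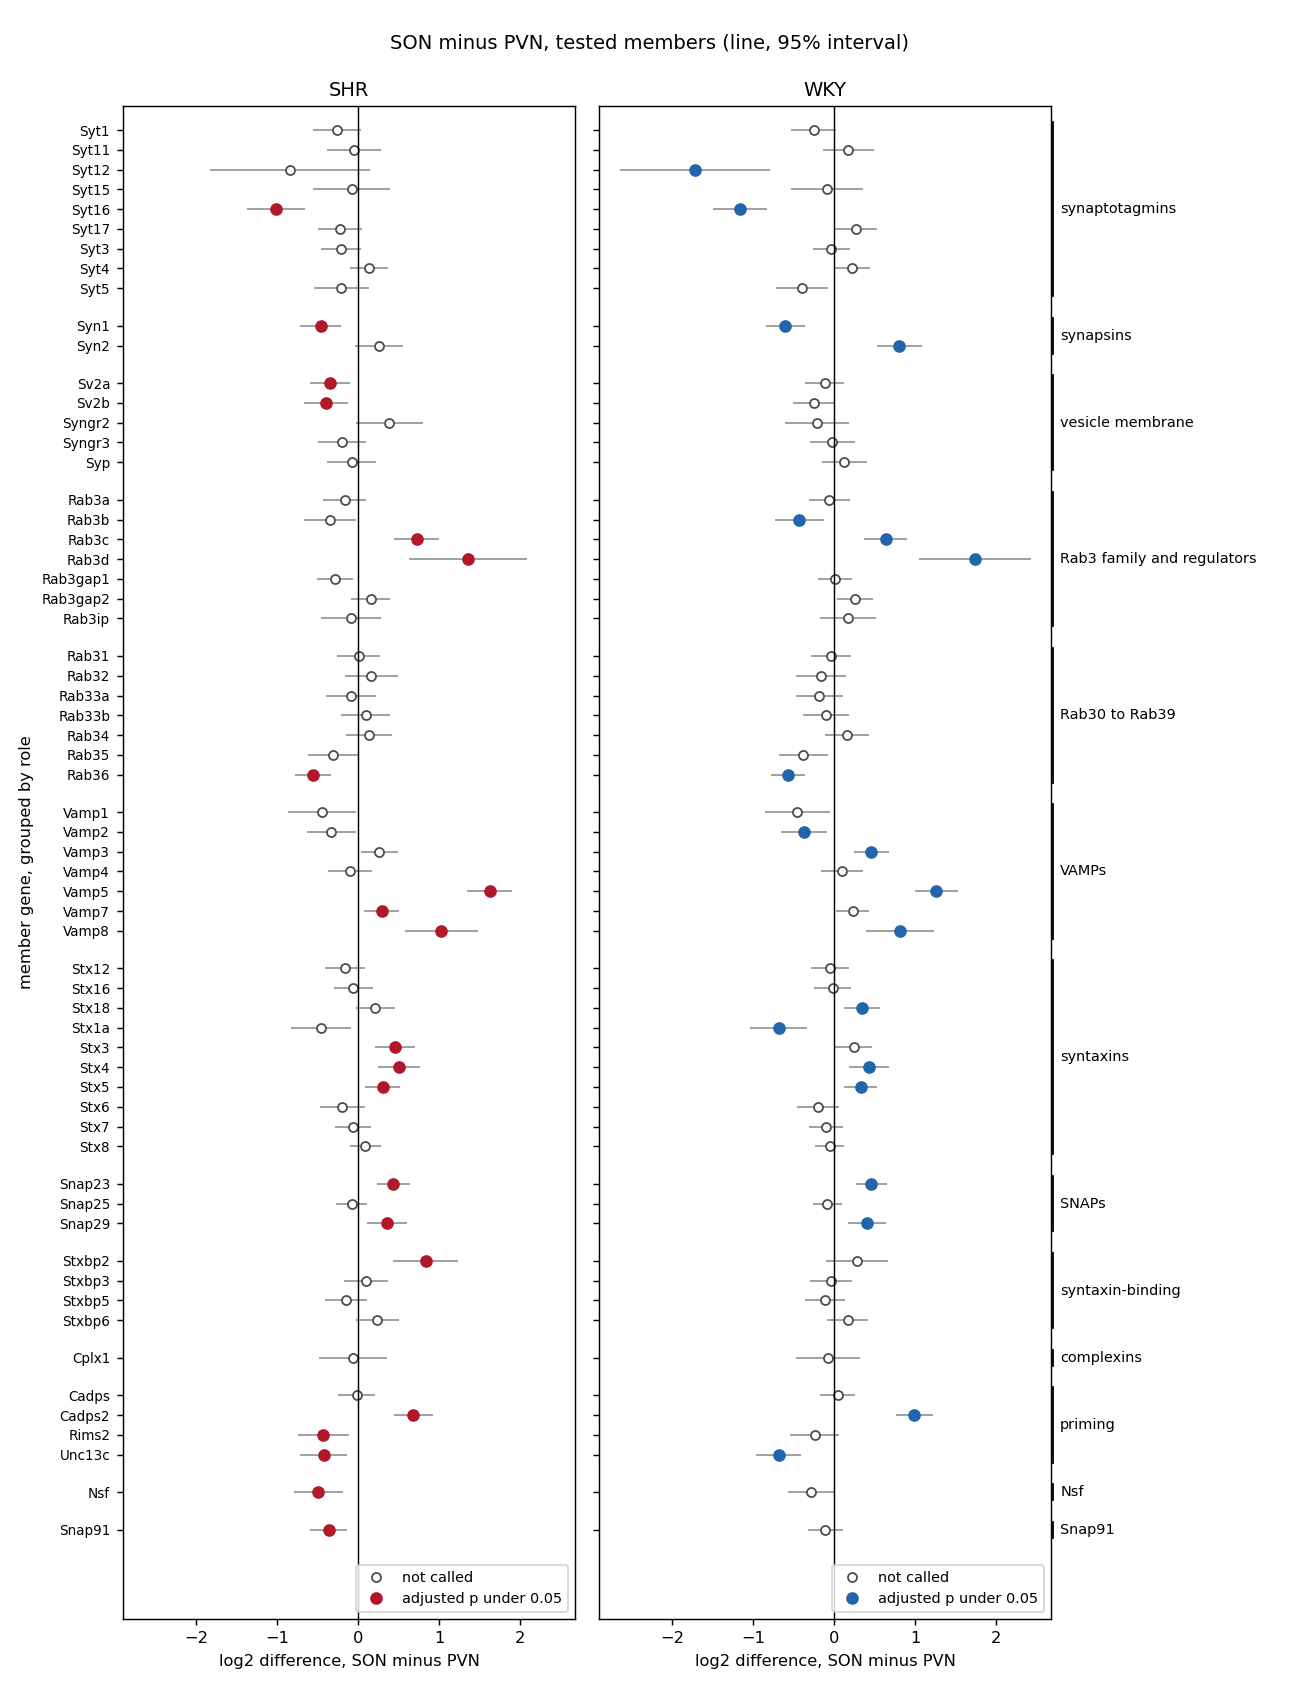
The log2 difference SON minus PVN (horizontal axis) is shown for 61 tested members in SHR and in WKY, grouped by role, with 95% intervals as lines and called members as filled points. Vamp5, Vamp8, Rab3d and Cadps2 lie on the right in both strains, and Syt16, Unc13c, Syn1 and Rab36 on the left.

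**Figure D4:**
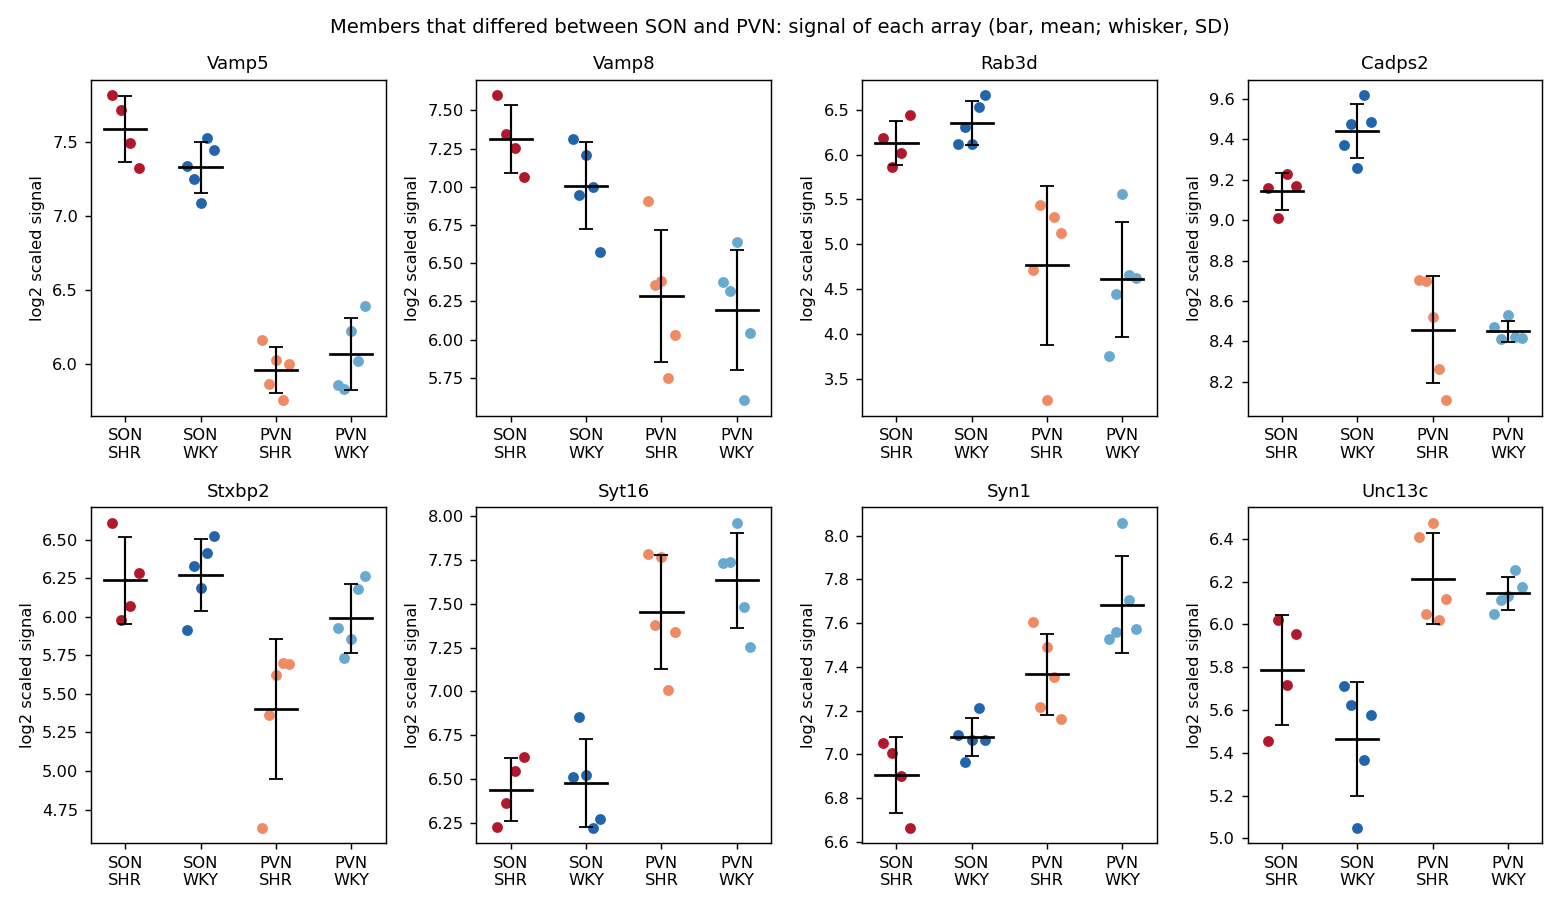
The log2 scaled signal (vertical axes, which do not start at 0) of each array is shown for 8 members in SHR SON, WKY SON, SHR PVN and WKY PVN, with the group mean as a bar and the SD as a whisker. For Vamp5, Rab3d and Cadps2 all SON points lie above all PVN points, for Syt16 all SON points lie below all PVN points, and for Stxbp2 the 5 SHR PVN points lie below every other point.

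Several marker lists of other cells differed between nuclei. Over all probe sets, 29.4% were called in SHR (13.7% higher and 15.7% lower in the SON) and 26.9% in WKY (13.2% and 13.7%). The mean of 11 meningeal markers was 7.96 to 9.34 on SHR SON arrays and 7.60 to 8.23 on WKY SON arrays, against 5.04 to 5.22 on SHR PVN arrays and 4.98 to 5.30 on WKY PVN arrays, and the median difference of the list was 3.31 in SHR and 3.06 in WKY. Endothelial markers were called higher in the SON for 2 of 8 in SHR and 4 of 8 in WKY, and astrocyte markers for 4 of 9 in both. Of 8 microglial markers, 1 was higher and 1 lower in SHR SON, and 0 were higher and 2 lower in WKY SON. Of 10 oligodendrocyte markers, 5 were higher and 0 lower in SHR SON by limma, 0 were higher and 1 was lower in WKY SON, and the interaction was called for 0 of 10. The neuronal list had 2 of 20 higher and 5 lower in SHR, and 5 higher and 3 lower in WKY. The part of these cells in the higher signals of Vamp5, Vamp8, Snap23, Stx4 and Rab3d was not tested.

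Genes that work beside the members were examined as lists. The shares over all probe sets belong beside each list in this paragraph and the next. Between nuclei they were 29.4% in SHR (13.7% higher and 15.7% lower in the SON) and 26.9% in WKY (13.2% and 13.7%). The strain comparisons called 3.63% in the SON and 2.34% in the PVN. Of other exocytosis genes (active zone scaffolds, Rab27 effectors, cysteine string protein and others), 39 were tested between nuclei, and 2 were higher and 10 lower in SHR SON and 2 higher and 8 lower in WKY SON. The lower ones in both strains included Nrxn3, a neurexin, with differences of -1.10 in each strain, Rph3al, a granule Rab effector, with -1.54 in SHR and -1.43 in WKY (tested through the PVN only, since both SON groups lay below the filter), and Synpr (synaptoporin), with -0.97 in SHR and -1.07 in WKY. Doc2g, which belongs to the Doc2 family, was higher, by 2.01 in SHR and 2.53 in WKY, and was tested through the SON only, since both PVN groups lay below the filter. Between strains 1 of 35 was lower in SHR SON (Apba1, an adaptor protein of the presynapse, -0.62, adjusted p = 0.0303 from limma) and 1 of 37 in SHR PVN (Sytl2, a Rab27 effector, -0.45, adjusted p = 0.0352), and 0 were higher by limma.

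Of 3 vesicular transmitter transporters tested, 3 were lower in the SON in SHR and 2 in WKY. Slc32a1, which loads GABA, had differences of -1.34 in SHR and -1.45 in WKY, and Slc18a2, which loads monoamines, -0.81 and -0.71. Of 19 genes of vesicle endocytosis, 0 were higher and 5 lower in SHR SON and 2 higher and 4 lower in WKY SON, with Amph (amphiphysin) lower in both by differences of -0.71 and -0.64. Between strains 1 of 19 was called in the SON (Bin1, a membrane-bending relative of amphiphysin, higher in SHR by 0.50, adjusted p = 0.0233 from limma) and 0 of 18 in the PVN. Of 17 subunits of the vesicular proton pump, 2 were higher in each strain and 0 lower, and 0 differed between strains in either nucleus by limma.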

How the data were processed

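RNA of the PVN and SON was hybridised to 1-colour Affymetrix arrays after linear amplification. The authors deposited intensities on a linear scale, namely MAS 5.0 signals scaled within each array. Their later GeneSpring normalisation and present calls were not used here. Control probe sets (57 of 31099) were left out. Arrays were scaled to a common median of 41.3, signals under 3.77 (10th percentile) were set to that floor, and log2 was taken, because array medians spanned 0.37 in log2 units. The floor held 8.35% to 10.6% of each array's probe sets. MAS 5.0 subtracts mismatch signals, which widens the spread of dim probe sets. Gene symbols of the platform annotation were checked through Entrez numbers for 20764 probe sets, of which 0 changed. There were 436 probe sets with several symbols and 9780 with none.

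Groups were compared with limma 3.58.1 in R 4.3.3 (two-sided, lmFit and eBayes). Strains were compared within a nucleus on the arrays of the 2 groups, and nuclei and the interaction in 1 fit of 19 arrays. The members and lists were chosen with earlier results of these data known. Genes named are, per comparison, up to 12 called members with the largest difference in each direction, members called in both strain comparisons, core members whatever their result, and up to 4 called genes of the list of other exocytosis genes. Further genes and per-array values were chosen after their values were seen. Alternatives covered scaling, floor, filter, arrays in the fit, block, moderation, array weights, the methods' t-test (Welch, Benjamini-Hochberg), a 2-fold limit, probe set choice and each array left out. The procedure was run on simulated data, and no outcome of that run is given or used here. Promoters and motifs were read in Python 3.11.15, and figures were drawn with matplotlib 3.10.9. The fifth SHR SON array and some genes of the pathway are not analysed here.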

Additional observations from a re-analysis of the deposited data

Results flagged for a closer look

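In 148 groups of arrays, 4 groups for each of 37 named members, 6 groups held an array whose gap to its nearest neighbour exceeded Dixon's 95% critical value, where chance gives about 1 in 20. The low arrays were SHR PVN array 4 for Snap29 (6.87), WKY SON array 3 for Stx4 (7.27) and WKY SON array 3 for Syt17 (7.44). The high arrays were SHR SON array 2 for Snap29 (7.73), SHR PVN array 5 for Rab3c (5.60) and WKY SON array 4 for Syt4 (11.18). WKY SON array 3 had the lowest correlation with its own group (0.929), and without it 6 members were called between strains in the SON.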

How the results depend on the processing

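Each result was recomputed under the alternatives listed above. For SHR against WKY in the SON, where 2 members (3.45%) and 3.63% of all probe sets were called, the count was 4 with the values as deposited (6.78%, beside 4.19% of all), 8 with log2(value + 16) (13.8%, 4.66%), 1 with no filter (1.19%, 0.937%), 6 with a stricter filter (10.9%, 4.78%), 10 with eBayes trend and robust (17.2%, 5.80%), 12 with array weights (20.7%, 9.73%), 0 with the methods' t-test (1.10% of all) and 0 with a 2-fold limit (0.767%). With log2(value + 16), eBayes trend and robust, and array weights, 7, 9 and 11 of these calls were lower in SHR. Stx8 was the 1 higher each time, and Vamp2, Nsf, Syp, Rab3a and Syngr3 were among the lower ones. Leaving out 1 array gave 1 (without SHR array 2, beside 2.14% of all) to 6 (without WKY array 3, beside 4.45%). In the PVN, where 0 were called, the count was 2 with the values as deposited (Stx8 and Vamp3, higher, beside 3.74% of all), 1 with quantile normalisation (Vamp3, beside 3.22%) and 2 with array weights (Vamp3 higher, Stxbp2 lower, beside 5.56%), and stayed at 0 with each array left out. SON against PVN gave 4 members in each strain with a 2-fold limit and, in SHR, 11 with the methods' t-test (18%, beside 16% of all). In SON against PVN, 10 of 21 calls in SHR and 14 of 20 in WKY held in all settings other than the 2-fold limit. Syn2 was lower in SHR SON by differences between -0.67 and -0.51 over all settings. Over the named genes, 0 differences that were called changed sign. The replicate block took the SON strain count to 0 (2.12% of all), gave 16 in SHR and 19 in WKY between nuclei (26.0% and 25.0% of all), and changed no count of members other than the SON strain count by over 1.5 times. With it Snap29, Stx5, Vamp7, Rims2, Unc13c and Sv2a were not called and Stx1a was called in SHR, and Rab3b was not called in WKY. The labels do not say whether replicate numbers pair the arrays. Same-numbered deviations correlated at -0.226 to 0.0799 between strains in the PVN, -0.0144 to 0.104 in the SON, -0.00909 to -0.00113 between nuclei in WKY and 0.0351 to 0.174 in SHR. SHR SON arrays 1 and 2 each correlated best with the SHR PVN array of the same number, and arrays 3 and 4 with PVN array 5. No WKY SON array did so with its own number. A pairing of the nuclei by rat was thus not settled. The causes of the changes between settings were not tested. Signal over background limits what can be said of the 23 untested members, 14 of which had an array at the floor.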
